A study of Rattus norvegicus with 47 samples.

Results

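Genes that code for partners of the glucocorticoid receptor were followed in rat blood. They were Hsp90aa1, Stip1, Bag1 and Stub1, which code for chaperones and cochaperones of the receptor, Ncoa1, Ncor1 and Nrip1, which code for coregulators, Smarca4, a chromatin remodelling enzyme gene, and Nr3c2, the gene of the mineralocorticoid receptor. The members were chosen by the gene symbol in the platform annotation, as probes ILMN_1358144 (Hsp90aa1), ILMN_1362703 (Stip1), ILMN_1353797 (Bag1), ILMN_1350492 (Stub1), ILMN_1373997 (Ncoa1), ILMN_1357958 (Ncor1), ILMN_1355813 (Nrip1), ILMN_1352184 (Smarca4) and ILMN_1354582 (Nr3c2). The 9 members were 9 of 13337 genes named on the array, and each had 1 of its 22523 probes. Probes entered the test if 7 or more of the 46 arrays gave a detection p under 0.05. That rule kept 9416 probes, and all 9 members were among them.

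Each sample was whole blood from an adult rat of the Sprague Dawley strain, hybridised to an Illumina bead array of its own. Exposed rats had met predator scent and were sorted by the submitters into an extreme and a minimal class by their behaviour, and the controls were tested for behaviour without exposure. The fitted arrays came from 8 extreme, 8 minimal and 6 control females and from 8 extreme, 8 minimal and 8 control males. The titles give F numbers to all females and R numbers to all males. Wherever the sexes are compared, sex therefore cannot be told apart from other differences between these sets of rats. Some R numbers occur in both the control and an exposed group, and the labels do not say whether these are the same animals. The seventh female control array (replicate 2) was left out because its highest intensity was 83.2 and only 1115 probes (4.95%) were detected on it. Extreme and minimal rats thus had the same treatment and differed in their response.

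Of the 6 female controls, 4 stood apart from every other array in the scores of 2 marker lists. Female control replicates 1, 3, 4 and 5 had platelet marker scores of -2.10, -3.08, -2.51 and -1.36, against 0.52 and 0.18 in replicates 6 and 7. Their immediate early gene scores ran the other way, at 1.44, 1.38, 1.29 and 1.06, against 0.03 and -0.02. A score is the mean log2 value of a marker list after each gene is centred on its mean over the 46 arrays. Differences from control females that bear on a member are therefore also given without these 4 arrays. Markers of blood cells were present, as all 7 erythroid markers with a probe were detected on every array, together with 8 of 10 T cell markers and 5 of 13 neutrophil markers. Between 5921 and 8770 probes were detected per array, and the 95th percentile of raw intensity ran from 205 to 914.

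The glucocorticoid receptor is a transcription factor that waits in the cytoplasm in a complex built on the HSP90 chaperone, and the complex keeps its hormone pocket open. HSP70 and its cochaperones load the receptor onto HSP90. Once bound by corticosterone, the main glucocorticoid of rats, it moves to the nucleus and works through coactivators, corepressors and chromatin remodellers. In blood, glucocorticoids released under stress act on leukocytes through this receptor. The receptor gene itself, Nr3c1, could not be followed here, since its probe was detected on 2 of 46 arrays.

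The promoter windows of 5 members are shown because 3 of these genes fell together in exposed males and the other two carry elements tied to heat shock and to glucocorticoids. Each window runs from 250 bases before to 50 after the annotated start, from RefSeq on build GRCr8, and 7 of the 9 members had one. Capitals mark matches to the searched motifs, read on both strands. The motifs were the heat shock element as GAANNTTC or TTCNNGAA, the glucocorticoid response element half-site AGAACA, the cAMP response element TGACGTCA and the CCAAT box CCAAT. Ncor1 lies at chr10:47640301-47640600 on the minus strand, Stub1 at chr10:15357510-15357809 on the minus strand, Smarca4 at chr8:28443569-28443868 on the plus strand, Stip1 at chr1:213657605-213657904 on the minus strand and Ncoa1 at chr6:33195875-33196174 on the minus strand.
Ncor1: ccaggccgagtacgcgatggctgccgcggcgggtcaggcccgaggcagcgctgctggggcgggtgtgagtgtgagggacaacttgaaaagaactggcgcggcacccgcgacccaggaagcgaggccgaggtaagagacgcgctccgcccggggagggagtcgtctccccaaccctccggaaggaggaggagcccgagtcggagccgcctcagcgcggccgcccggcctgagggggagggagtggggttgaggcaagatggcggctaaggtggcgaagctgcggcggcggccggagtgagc
Stub1: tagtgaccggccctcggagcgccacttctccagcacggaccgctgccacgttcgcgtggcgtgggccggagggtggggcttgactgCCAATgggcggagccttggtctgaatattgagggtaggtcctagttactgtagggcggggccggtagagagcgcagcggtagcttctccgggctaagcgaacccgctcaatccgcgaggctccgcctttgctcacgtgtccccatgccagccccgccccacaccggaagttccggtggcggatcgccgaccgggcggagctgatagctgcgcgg
Smarca4: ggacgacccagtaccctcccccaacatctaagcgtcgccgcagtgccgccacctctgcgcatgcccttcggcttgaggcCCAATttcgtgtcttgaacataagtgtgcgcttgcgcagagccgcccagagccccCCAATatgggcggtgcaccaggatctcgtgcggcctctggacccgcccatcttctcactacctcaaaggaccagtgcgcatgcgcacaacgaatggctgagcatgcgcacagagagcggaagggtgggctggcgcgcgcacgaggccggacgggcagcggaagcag
Stip1: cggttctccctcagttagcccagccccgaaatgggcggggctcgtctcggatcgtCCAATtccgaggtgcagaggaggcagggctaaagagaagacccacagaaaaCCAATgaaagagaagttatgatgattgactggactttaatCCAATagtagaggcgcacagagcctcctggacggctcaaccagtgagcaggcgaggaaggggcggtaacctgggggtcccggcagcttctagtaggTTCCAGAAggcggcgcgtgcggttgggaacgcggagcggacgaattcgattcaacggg
Ncoa1: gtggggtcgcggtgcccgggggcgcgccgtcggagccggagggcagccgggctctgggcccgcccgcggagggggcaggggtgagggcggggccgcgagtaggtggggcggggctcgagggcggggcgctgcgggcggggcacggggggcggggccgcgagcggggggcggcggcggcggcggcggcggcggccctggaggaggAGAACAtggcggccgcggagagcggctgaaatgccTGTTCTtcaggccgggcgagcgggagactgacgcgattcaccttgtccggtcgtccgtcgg

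The Stip1 window held a head-to-head heat shock element, TTCCAGAA, whose first base lies at position -8 from the start, and 3 CCAAT boxes at -195, -144 and -104. Among all 33469 promoter windows of this length, 8.77% held TTCNNGAA, 8.59% GAANNTTC and 37.5% a CCAAT box on either strand. Smarca4 had 2 CCAAT boxes and Stub1 had 1. The Ncoa1 window held 2 glucocorticoid half-sites, at -46 on the plus strand and -11 on the minus strand of the gene, and 20.7% of all windows held at least 1. No searched motif was found in the windows of Ncor1, Bag1 and Nrip1, and no member window held the cAMP response element, which was present in 1.83% of windows. All 7 windows were rich in G and C, from 58.0% to 80.7%, against a median of 51.7% over all windows. They held 22 to 47 CpG dinucleotides, against a median of 7.

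Exposure in males was the comparison in which most members moved. Ncor1, Smarca4 and Stub1 fell in exposed males and no member rose, with exposed meaning the average of the extreme and minimal classes. Across all tested probes, 6.23% were called higher and 4.97% lower in that comparison at an adjusted p below 0.05, beside 3 of the 9 members lower and 0 higher. The members were chosen with earlier results of these data known. The median difference of the 9 members was -0.21 on the log2 scale, against -0.01 over all probes. In whole blood, fewer cells of a type and less RNA per cell cannot be told apart, and this holds for every value below.

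Ncor1 codes for a corepressor that brings histone deacetylase activity to nuclear receptors. Its log2 normalised intensity had a lowest, median and highest value of 6.32, 6.92 and 7.68 in extreme males, 6.16, 6.71 and 8.06 in minimal males, and 7.03, 7.61 and 8.44 in control males. Of the 16 exposed males, 13 lay below the control mean and 12 lay below all 8 controls, while 3 lay above that mean, so the groups overlapped. The means were 6.91 ± 0.42, 6.92 ± 0.71 and 7.64 ± 0.53 (SD, n = 8 each). Ncor1 was 1.66-fold lower in exposed males, a log2 difference of -0.73 (95% CI -1.18 to -0.28, adjusted p = 0.0258). It was also the only member called in minimal males against control males, at -0.73 (adjusted p = 0.0482). That call held in 4 of 12 distinct other settings. Without background correction Ncor1 was at -0.45 (adjusted p = 0.0591) and not called, while Stub1 was called there. The Ncor1 difference was as large in extreme males, at -0.74, where the adjusted p was 0.141.

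In females Ncor1 ran from 6.30 over a median of 6.83 to 8.00 in the extreme class, 6.04 over 7.18 to 8.02 in the minimal class and 6.72 over 7.36 to 7.78 in controls. The classes overlapped widely. The exposed-minus-control difference of -0.24 was not called (95% CI -0.74 to 0.26, adjusted p = 0.644), it was -0.12 without the 4 controls that stood apart, and it took the value 0.10 with scaling to the 75th percentile of each array. The exposure difference in males minus that in females was -0.49 (adjusted p = 0.373), so a difference between the sexes was not shown for Ncor1.

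Smarca4 codes for BRG1, the ATPase that drives many SWI/SNF chromatin remodelling complexes and that opens chromatin for the receptor. Its probe was dim and was detected on 39 of 46 arrays, including all 8 control males. The lowest, median and highest log2 values were 4.78, 5.39 and 5.69 in extreme males, 4.97, 5.47 and 5.97 in minimal males, and 5.58, 5.79 and 6.05 in control males. In the extreme class 7 of 8 males lay below every control, and in the minimal class 5 of 8 did. Group means were 5.35 ± 0.27, 5.42 ± 0.35 and 5.81 ± 0.16 (SD, n = 8 each). Smarca4 was 1.34-fold lower in exposed males (log2 difference -0.43, 95% CI -0.70 to -0.15, adjusted p = 0.0355), with 15 of 16 exposed males below the control mean. The size for this dim probe depended on the background correction, at -0.15 without any and -0.24 with an offset of 50, both called.

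In females the Smarca4 probe was detected on 4 of 8 extreme, 7 of 8 minimal and 5 of 6 control arrays. Its lowest, median and highest log2 values were 4.79, 5.03 and 5.63 in extreme, 4.54, 5.21 and 5.53 in minimal and 4.74, 5.57 and 5.84 in control females. The groups overlapped, with 12 of 16 exposed females below the control mean. The difference of -0.32 was not called (95% CI -0.62 to -0.01, adjusted p = 0.242). Without the 4 arrays it was -0.46 (adjusted p = 0.889). The change in males and that in females differed by -0.11 (adjusted p = 0.797), which was not called.

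Stub1 codes for CHIP, a ubiquitin ligase that binds HSP70 and HSP90 and marks their clients, the glucocorticoid receptor among them, for degradation. Log2 values had a lowest, median and highest of 7.98, 8.08 and 8.31 in extreme males, 7.95, 8.04 and 8.30 in minimal males, and 7.95, 8.43 and 8.58 in control males. All 16 exposed males lay below the control mean of 8.36 ± 0.21 (SD, n = 8), yet none lay below the lowest control, so the groups overlapped throughout the exposed range. The lowest control, male control replicate 2, had 7.95, and the next lowest control had 8.18. Stub1 was 1.19-fold lower in exposed males (log2 difference -0.25, 95% CI -0.42 to -0.08, adjusted p = 0.0413). In females it ran from 7.62 over a median of 8.02 to 8.40 in the extreme class, 7.97 over 8.06 to 8.27 in the minimal class and 7.88 over 8.14 to 8.30 in controls. The exposed-minus-control difference was -0.09 (95% CI -0.27 to 0.10, adjusted p = 0.646), it was -0.17 without the 4 controls, and its sign turned to 0.26 under scaling to the 75th percentile. The difference between the sexes was -0.16 (adjusted p = 0.443).

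**Figure D1:**
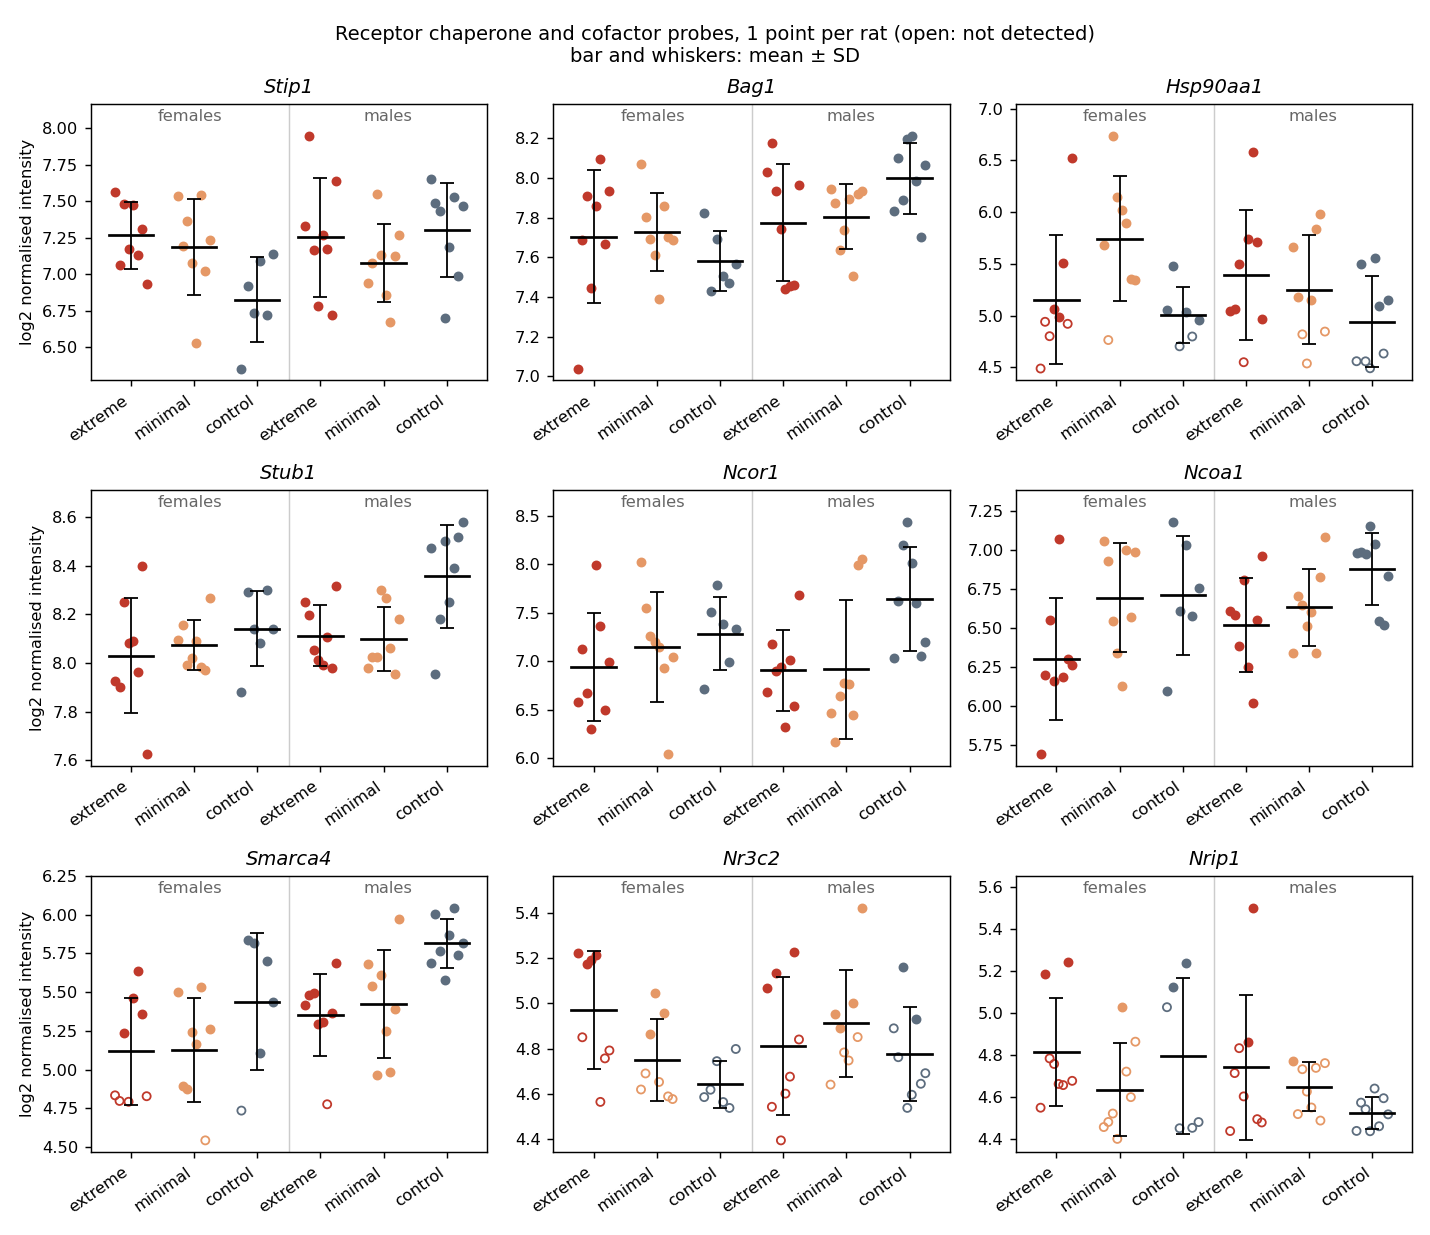
Log2 normalised intensity (vertical axes) of the 9 members in extreme, minimal and control females and males, 1 point per rat, open where the probe was not detected on that array, with the mean as a bar and whiskers of 1 SD. In Ncor1, Smarca4 and Stub1 the control males have the highest mean of the 6 groups, and the exposed males overlap them in each.

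The other 6 members were not called in exposed males. Ncoa1 codes for SRC-1, a coactivator that links bound nuclear receptors to histone acetylation. It had a lowest, median and highest log2 value of 6.02, 6.57 and 6.97 in extreme males, 6.34, 6.63 and 7.08 in minimal males, and 6.52, 6.98 and 7.15 in control males. The exposed-minus-control difference was -0.30 (95% CI -0.58 to -0.03, adjusted p = 0.152), and 14 of 16 exposed males lay below the control mean. Bag1, which codes for a nucleotide exchange factor of HSP70 that also binds the receptor, differed by -0.21 (95% CI -0.42 to 0.00, adjusted p = 0.208). Its values ran from 7.44 to 8.18 in extreme males, 7.51 to 7.94 in minimal males and 7.70 to 8.21 in control males, and 14 of 16 exposed males lay below the control mean.

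Stip1 codes for HOP, the adaptor that holds HSP70 and HSP90 together while the receptor is handed over. In males its lowest, median and highest log2 values were 6.72, 7.22 and 7.95 in the extreme, 6.67, 7.10 and 7.55 in the minimal and 6.70, 7.45 and 7.65 in the control group. The 3 groups overlapped over most of their range, and exposed males differed from controls by -0.14 (95% CI -0.41 to 0.13, adjusted p = 0.575). Hsp90aa1, the gene of the inducible HSP90 isoform, had a lowest, median and highest value of 4.55, 5.28 and 6.58 in extreme, 4.54, 5.16 and 5.98 in minimal and 4.49, 4.86 and 5.56 in control males. Its difference was 0.38 (95% CI -0.06 to 0.83, adjusted p = 0.284). Its probe was detected on 7 of 8 extreme, 5 of 8 minimal and 4 of 8 control males.

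The probes of Nr3c2 and Nrip1 were near background. Nr3c2, whose protein also binds corticosterone with high affinity, was detected on 3 of 8 extreme, 4 of 8 minimal and 2 of 8 control males, with log2 values from 4.39 to 5.23, 4.64 to 5.42 and 4.54 to 5.16. Nrip1, the gene of the corepressor RIP140, was detected on 2 of 8 extreme, 1 of 8 minimal and 0 of 8 control males, so it was not well above background in any control male. Log2 values of Nrip1 ran from 4.44 to 5.50 in extreme males, 4.49 to 4.77 in minimal males and 4.44 to 4.64 in control males. Exposed males differed from controls by 0.08 for Nr3c2 (adjusted p = 0.678) and by 0.17 for Nrip1 (adjusted p = 0.361). No fold is given for Nrip1, because the bound against the lowest detected signal was under 1.

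**Figure D2:**
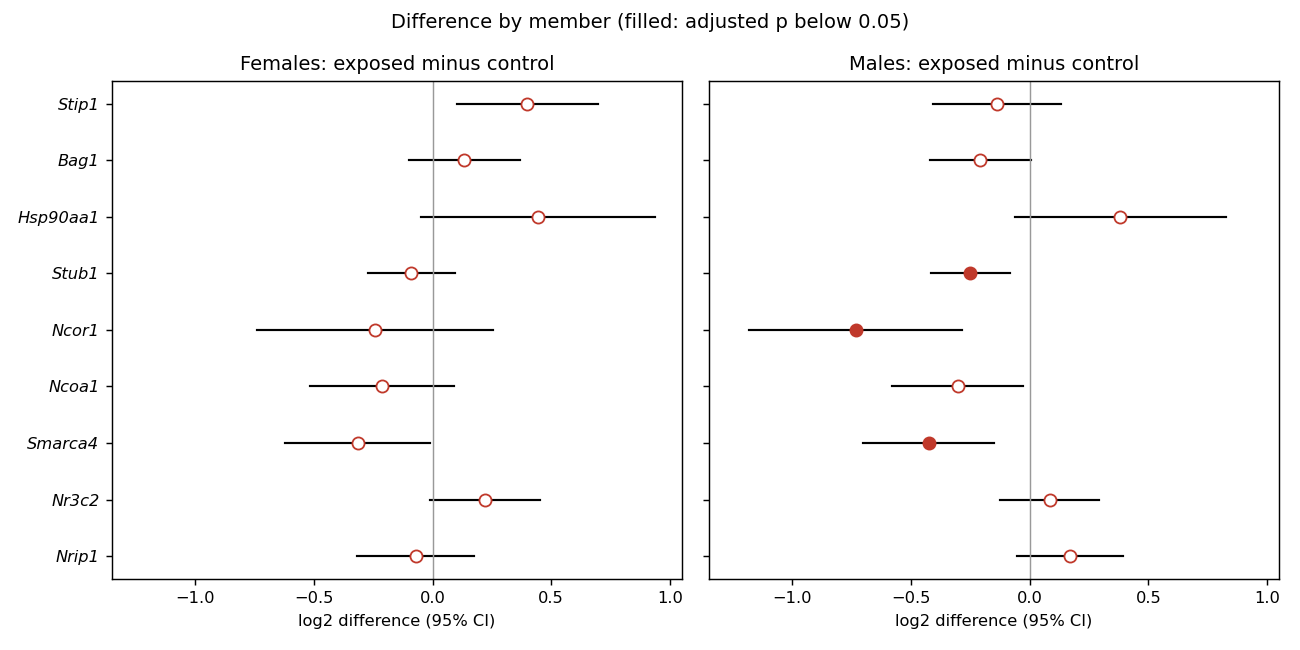
Log2 difference of exposed minus control rats (horizontal axes) with its 95% confidence interval for each member, in females and in males, filled where the adjusted p was below 0.05. The 3 filled points are Stub1, Ncor1 and Smarca4 in males, at -0.25, -0.73 and -0.43.

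Extreme males against controls gave no called member and no called probe at all (0% higher and 0% lower), although 1437 probes (15.3%) had an unadjusted p below 0.05, as did 4 members. Minimal males against controls gave 8.11% of probes called higher and 6.71% lower, with 1 member lower, Ncor1. Both comparisons use the same 8 controls. Smarca4 differed by -0.46 in extreme males (adjusted p = 0.136) and by -0.39 in minimal males (adjusted p = 0.0883), and Stub1 by -0.24 (adjusted p = 0.190) and -0.26 (adjusted p = 0.0608). Set directly against each other, extreme and minimal males differed in no member, with Ncor1 at -0.01, Smarca4 at -0.07 and Stub1 at 0.01, and with 95% intervals of -0.53 to 0.51, -0.39 to 0.25 and -0.18 to 0.21. On the array as a whole 0.106% of probes were higher and 0.0319% lower in extreme than in minimal males, and scaling to the 75th percentile left 2 higher and 0 lower.

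The calls in exposed males depended on the setting. Ncor1 was called in 8 of 12 distinct other settings, Smarca4 in 7 and Stub1 in 7, and all 3 kept a negative difference in each of them. With all arrays scaled to the 75th percentile in place of quantile normalisation, the differences were -0.72, -0.39 and -0.26 and the adjusted p-values 0.107, 0.0879 and 0.435, and the called probes split into 115 higher and 52 lower, or 68.9% higher against 55.6% with quantile normalisation. With the left-out female array put back, the differences were still -0.73 for Ncor1, -0.42 for Smarca4 and -0.25 for Stub1, and the adjusted p-values were 0.172, 0.148 and 0.553, so all 3 calls were lost. In that fit the called probes of the whole array fell from 1055 to 119 in exposed males.

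Marker genes of blood cells were called about as often as other probes between exposed and control males, at 5 of 54 (9.26%), beside 6.23% higher and 4.97% lower over the array. Among tested markers, 2 of 10 neutrophil genes were higher and 1 lower, 1 of 9 T cell genes was higher, 1 of 7 erythroid genes was higher, and none of 4 B cell, 5 monocyte, 8 platelet or 8 cytotoxic cell genes was called. The B cell score ran from -0.06 to 0.48 in extreme, -0.23 to 0.63 in minimal and 0.15 to 0.60 in control males, and the T cell score from -0.14 to 0.29, -0.10 to 0.32 and -0.11 to 0.30 in the same 3 groups. The B cell marker Pax5 was detected on no array. With the scores of 6 cell types as covariates, the differences were -0.65 for Ncor1 (adjusted p = 0.0803), -0.35 for Smarca4 (adjusted p = 0.137) and -0.22 for Stub1 (adjusted p = 0.0926). With array brightness as a covariate all 3 were called.

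**Figure D3:**
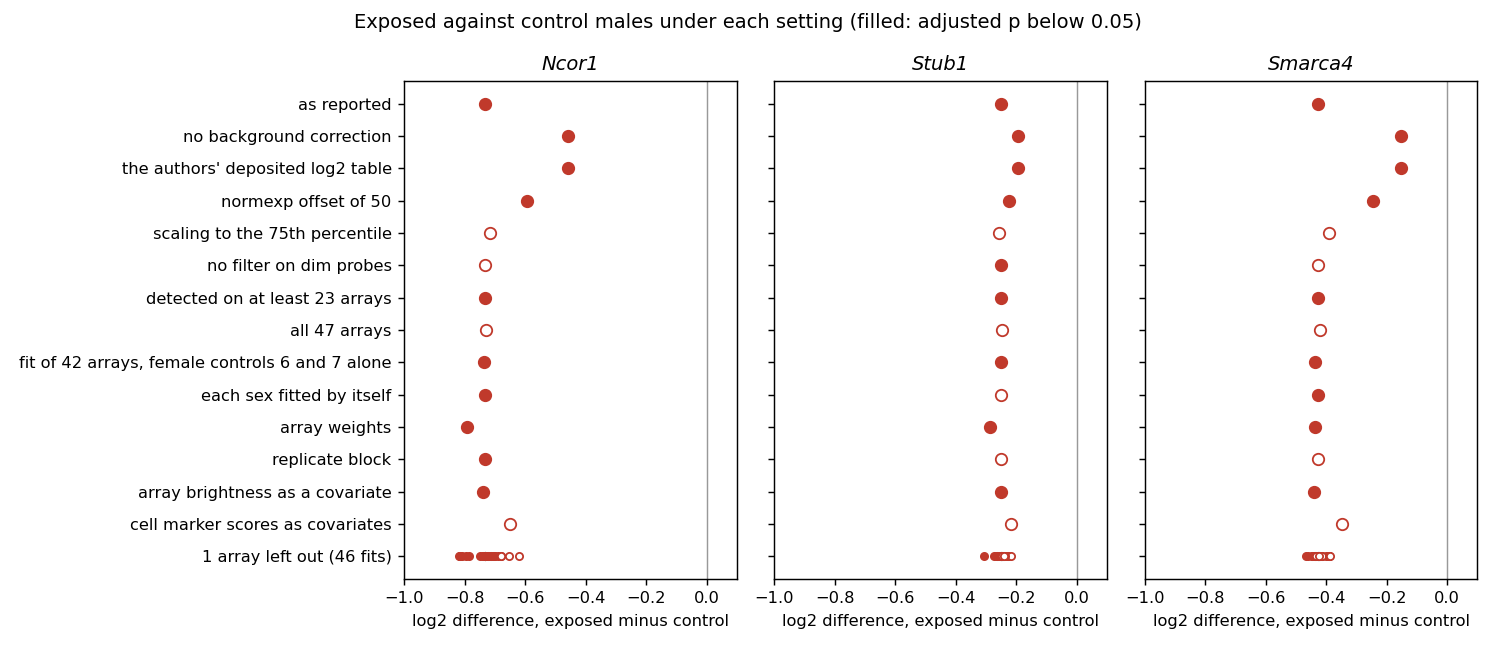
Log2 difference of exposed minus control males (horizontal axes) for Ncor1, Stub1 and Smarca4 under the reported setting, 13 others and the 46 fits that leave out 1 array, filled where the adjusted p was below 0.05. The deposited log2 table and no background correction hold the same values. All points lie below 0, and the open ones include scaling to the 75th percentile, all 47 arrays and the cell marker covariates for each gene.

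Exposure in females left no member called. Exposed females against controls gave 4.27% of probes higher and 2.09% lower, and the median of the 9 members was -0.07. The comparison of extreme females with controls gave 3.28% higher and 2.08% lower, and that of minimal females with the same controls 3.96% higher and 1.23% lower, again with 0 of 9 members in each direction. Without the 4 controls that stood apart, 1 probe on the whole array was called in exposed females. Under limma 2 members had an unadjusted p below 0.05 in exposed females, 3 in extreme and 2 in minimal females, beside 19.1%, 18.7% and 17.4% of all probes in the same 3 comparisons. Scaling to the 75th percentile moved the split of called probes to 91.5% higher in exposed females, against 67.1%, to 90.7% in extreme females, against 61.2%, and to 86.7% in minimal females, against 76.3%.

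Stip1 came nearest to a call among females. Its lowest, median and highest log2 values were 6.93, 7.24 and 7.57 in extreme, 6.53, 7.21 and 7.54 in minimal, and 6.36, 6.83 and 7.14 in control females. In exposed females 15 of 16 lay above the control mean and 10 of 16 above every control. The difference was 0.40 (95% CI 0.10 to 0.70, adjusted p = 0.101), and it was 0.30 without the 4 controls (adjusted p = 0.994). It was called under scaling to the 75th percentile (0.66, adjusted p = 0.0443). With all 47 arrays it was 0.73 (adjusted p = 0.0190), but that fit counts the array left out for its low signal as a female control. That call is therefore not read as a result for Stip1. The exposure difference of Stip1 in males minus that in females was -0.54 (95% CI -0.94 to -0.14, adjusted p = 0.0705), the lowest adjusted p of any member in that test. Without the 4 controls it was -0.44 (adjusted p = 0.599).

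Hsp90aa1 was detected on 4 of 8 extreme, 7 of 8 minimal and 4 of 6 control females. Its lowest, median and highest log2 values were 4.49, 4.96 and 6.52 in extreme, 4.77, 5.79 and 6.74 in minimal, and 4.70, 5.00 and 5.48 in control females. Minimal females differed from controls by 0.74 (95% CI 0.19 to 1.29, adjusted p = 0.120), and extreme females by 0.15 (adjusted p = 0.830), or by 0.28 without the 4 controls that stood apart. Extreme minus minimal females gave -0.59 (95% CI -1.10 to -0.08, adjusted p = 0.323). None of these passed the test, and without those controls the value in minimal females was 0.89 (adjusted p = 0.982).

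Ncoa1 had a lowest, median and highest value of 5.69, 6.23 and 7.07 in extreme, 6.13, 6.75 and 7.06 in minimal, and 6.10, 6.69 and 7.18 in control females. Of the 8 extreme females, 7 lay below the control mean. The difference was -0.41 in extreme females against controls (adjusted p = 0.165), -0.37 without the 4 arrays, and -0.39 for extreme minus minimal females (95% CI -0.71 to -0.07, adjusted p = 0.289). In the last comparison, which does not use the controls, 0.117% of all probes were called higher and 0.223% lower, and 0 members.

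Bag1 had a lowest, median and highest log2 value of 7.04, 7.77 and 8.09 in extreme, 7.39, 7.70 and 8.07 in minimal, and 7.43, 7.54 and 7.82 in control females. It differed by 0.13 in exposed females (95% CI -0.10 to 0.37, adjusted p = 0.565), and by 0.20 without the 4 controls. Nr3c2 was detected on 4 of 8 extreme, 3 of 8 minimal and 0 of 6 control females, so it was not well above background in any female control. Its log2 values ran from 4.56 to 5.23 in extreme, 4.58 to 5.05 in minimal and 4.54 to 4.80 in control females, and 5 of 8 extreme females lay above every control. The difference was 0.33 in extreme females (adjusted p = 0.132, and 0.31 without the 4 controls) and 0.22 in exposed females (adjusted p = 0.291), the last was 0.20 without the 4 controls and -0.02 under scaling to the 75th percentile, and no fold is given because the bound was under 1. Nrip1 was detected on 2 of 8 extreme, 1 of 8 minimal and 2 of 6 control females, where it ran from 4.55 to 5.25, 4.40 to 5.03 and 4.45 to 5.24. It differed by -0.07 (adjusted p = 0.808), and by 0.26 without the 4 controls.

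Tests of whether exposure acted alike in both sexes called none of the 9 members. In males minus females, 5.6% of all probes had a higher and 5.79% a lower exposure difference, and scaling to the 75th percentile moved that split to 10.6% higher among called probes, against 49.2%. A negative value was found for 8 of the 9 members, with Bag1 at -0.34 (95% CI -0.66 to -0.03, adjusted p = 0.155) after Stip1. The share of negative values over all probes was not computed. Without the 4 female controls that stood apart, 0 probes on the whole array were called. The values were then -0.44 for Stip1, -0.41 for Bag1, -0.62 for Ncor1 and -0.08 for Stub1. In that fit Smarca4 turned to 0.02, and Nrip1 turned from 0.24 to -0.09. The extreme-minus-minimal difference compared between the sexes gave 0.0319% of probes higher and 0% lower, and no member. Hsp90aa1 had the largest value there, 0.73 (95% CI 0.01 to 1.46, adjusted p = 0.607).

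Between the sexes, Smarca4 and Bag1 were higher in males and no member was lower. Sex cannot be told apart here from other differences between the F-numbered and R-numbered rats. The comparison averages the 3 groups of each sex, and 18.9% of all probes were called higher and 15.3% lower in males, beside 2 of the 9 members higher and 0 lower, a share close to that of all probes. Smarca4 was 1.23-fold higher in males (log2 difference 0.30, 95% CI 0.11 to 0.49, adjusted p = 0.00987). Bag1 was 1.14-fold higher (0.19, 95% CI 0.04 to 0.33, adjusted p = 0.0378). Most of the Bag1 difference lay in the controls, with means of 8.00 in males and 7.58 in females. The Bag1 means were 7.78 and 7.70 in the extreme class and 7.81 and 7.73 in the minimal class. Smarca4 was called in 9 of 11 distinct other settings and Bag1 in 4 of 11. Without the 4 female controls neither was called, at 0.27 (adjusted p = 0.0675) and 0.21 (adjusted p = 0.0807). Marker lists differed between the sexes as well: 7 of 10 neutrophil, 4 of 4 B cell and 4 of 9 T cell genes were higher in males and 5 of 7 erythroid genes lower, and with the cell scores as covariates the values were 0.13 for Smarca4 (adjusted p = 0.940) and 0.04 for Bag1 (adjusted p = 0.973).

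Over all 6 groups, control males had the highest mean of Stip1, Bag1, Stub1, Ncor1, Ncoa1 and Smarca4. The share of all probes with their highest mean in control males was not computed. For Stip1 the lead over extreme females was 0.04, with a pooled SD of 0.28. In the order of group means, 3 of 45 neighbouring steps were larger than the pooled SD of single rats, which is a description and no test. They were minimal males below control males for Bag1, a step of 0.19 that the fit did not call (adjusted p = 0.313), and control males above control females for Stub1 and Smarca4.

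Some members varied together among rats of the same group, though over all 36 pairs the median Pearson's r was 0.05 and 22 were positive. How often pairs of other probes vary together was not computed, so the count below has no background beside it. After each group mean was subtracted, 6 of 36 pairs over the 46 arrays had an adjusted permutation p below 0.05 by Pearson's r, and 1 of them did so by Spearman's rho as well. That pair was Ncor1 and Ncoa1, a corepressor and a coactivator gene (r = 0.54, adjusted permutation p = 0.0054, rho = 0.50, adjusted permutation p = 0.0277). The r was 0.51 in females, 0.61 in males and 0.52 without the 2 arrays farthest from the median of Ncor1. Hsp90aa1 and Stub1 ran in opposite directions (r = -0.47, adjusted permutation p = 0.0317, rho = -0.42, adjusted permutation p = 0.0547), at -0.48 in females and -0.46 in males, and -0.40 without the 2 farthest arrays. Bag1 with Ncoa1 had an r of 0.46, Ncoa1 with Smarca4 0.45, Bag1 with Ncor1 0.43 and Ncor1 with Smarca4 0.41, the last falling to 0.28 without 2 arrays. All pairs share arrays and their depth, and no member's correlation with array brightness passed the same test over both sexes. In females alone the r with brightness was 0.58 for Smarca4, 0.54 for Ncor1, 0.52 for Bag1, 0.44 for Hsp90aa1, 0.42 for Ncoa1 and 0.00 for Stub1. In males the values were 0.11, -0.30, -0.03, 0.03, -0.18 and 0.18 in the same order. These values by sex were not tested, so a part of brightness in the pairs is not set aside.

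**Figure D4:**
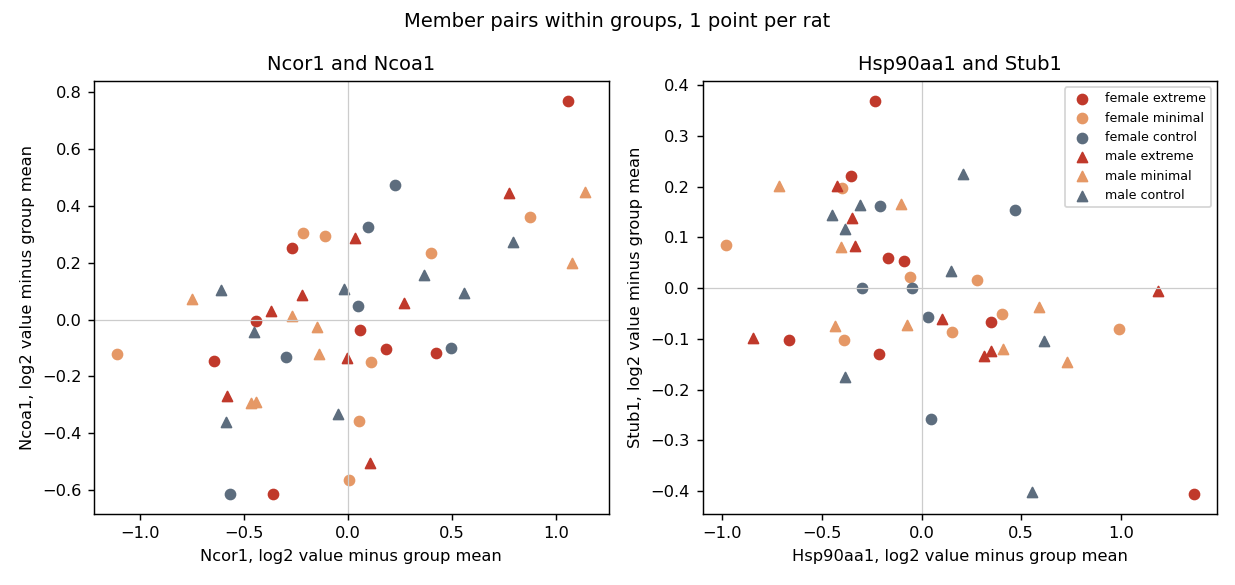
Log2 value minus the group mean for Ncor1 against Ncoa1 and for Hsp90aa1 against Stub1, 1 point per rat, with colour for class and shape for sex. The first pair rises together (r = 0.54) and the second runs in opposite directions (r = -0.47), and both slopes appear in each sex.

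By the same within-group measure, taken over 6785 other probes with a symbol and 46 arrays, the probes most like Ncor1 were Rpl21 (r = 0.70), Slc16a6 (0.69) and Psmd4 (0.68), and Slc16a6 was also among the closest to Ncoa1 (0.69), after Tcof1 and Btbd9 (0.70 each). Closest to Stub1 was Yif1b (0.70), to Smarca4 Kmt2e (0.62), to Hsp90aa1 Yme1l1 (0.73), to Bag1 Nckap1l (0.69) and to Stip1 Lmf2 (0.63). The dim probes Nr3c2 and Nrip1 had no likeness above 0.58 and 0.56, with Pias3 and Esco1. These are descriptions and carry no test.

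A list of 79 further genes of the receptor pathway, written with earlier results of these data known, had 41 that were tested. In exposed males 7 were higher and 4 lower, with a median of 0.01, beside 6.23% of all probes higher and 4.97% lower. None of these 11 calls was kept under scaling to the 75th percentile, where 11 of the 41 had an unadjusted p below 0.05, and with all 47 arrays 1 gene, Hdac2, was called. Among 20 other chaperone cycle genes 4 rose and 2 fell: the HSP40 genes Dnaja2 (0.67, adjusted p = 0.00216), Dnaja1 (0.77, adjusted p = 0.00883) and Dnajb1 (0.52, adjusted p = 0.0135), which stimulate HSP70, were higher, as was mitochondrial Hspa9 (0.43), whereas Hspbp1 (-0.34), an HSP70 exchange factor gene, and Unc45a (-0.48), a cochaperone gene, were lower. Hspa9, Hspbp1 and Unc45a were named after their values were seen. Of 5 other coactivator genes, the acetyltransferase genes Kat2a (-0.48, adjusted p = 0.0150) and Kat5 (-0.52, adjusted p = 0.0249) fell and none rose. Of 8 other corepressor genes, the deacetylase gene Hdac2 (0.43, adjusted p = 0.00674) and Ctbp1 (0.35, adjusted p = 0.0218) rose and none fell, while Ncor1 fell. Of 7 other SWI/SNF genes only Arid1a was called (0.40, adjusted p = 0.0189), and it was higher while Smarca4 was lower.

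**Figure D5:**
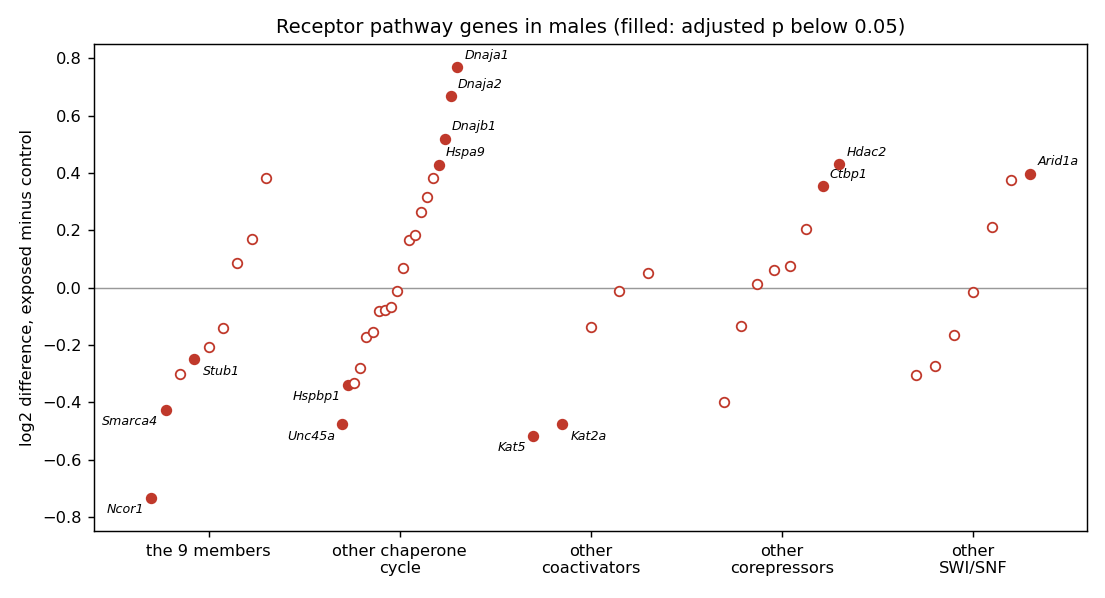
Log2 difference of exposed minus control males (vertical axis) for the 9 members and for the tested genes of 4 other pathway lists, 1 point per gene, filled and named where the adjusted p was below 0.05. The called members lie below 0, and the called chaperone cycle genes lie on both sides, from -0.48 to 0.77.

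In exposed females limma called none of the 41, of which 6 had an unadjusted p below 0.05. The cochaperone gene Fkbp5, whose protein lowers the hormone affinity of the receptor, was the only one called in extreme females against controls (0.68, adjusted p = 0.00978) and against minimal females (0.65, adjusted p = 0.0495). Without the 4 controls the first value was 0.64 (adjusted p = 0.473), and only 7 probes on the array were called in that comparison, against 505. The call against minimal females was lost under scaling to the 75th percentile (0.42, adjusted p = 0.336) and with all 47 arrays (0.65, adjusted p = 0.575). Minimal males against controls had 8 higher and 4 lower, and extreme males none of 41.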

How the data were processed

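Whole blood RNA was depleted of globin messenger RNA and hybridised as biotinylated cRNA, per the labels' protocols. The authors deposited 1 intensity per probe and array, without normalization, and a detection p-value beside it, per the file headers. The authors' deposited log2 table equals quantile-normalized log2 intensities without background correction (largest difference 5e-09). Intensities were corrected and quantile normalized with neqc of limma 3.58.1 in R 4.3.3 (offset 16), and 6 group means were fitted with lmFit and eBayes over 46 arrays (40 residual degrees of freedom). A fit of all 47 arrays is among the alternatives, and in comparisons with female controls it counts the left-out array as a control. The 11 comparisons were two-sided, with p-values of limma adjusted by Benjamini and Hochberg over 9416 probes and called below 0.05. The offset makes differences of dim probes smaller. Levels of different probes are not compared. The number of arrays limits the precision. No pair of arrays held the same values, the highest correlation being 0.9875. Pairwise correlations used 100000 permutations within groups, and scripts were tested on simulated data. No chip position or scan date was at hand, so no batch was tested. Each array was treated as a separate rat, and errors measure the spread between arrays. Some rat numbers recur between control and exposed males, and the fits did not pair them.

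All 9 members were named by rule, and of the other lists the 3 genes with the smallest p where called. The members and lists were chosen with earlier results of these data known. Alternatives were the background correction, offset, scaling, detection filter, arrays fitted, array weights, replicate number, brightness, cell marker scores and the deposited log2 values. Refits of other pathway genes were added after seeing the data.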

Additional observations from a re-analysis of the deposited data

Results flagged for a closer look

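Dixon's test over 54 groups of rats marked 3 values that stood apart within their group, and chance marks about 1 group in 20. Smarca4 had a log2 value of 4.78 in male extreme replicate 6, where the next lowest extreme male had 5.29, and the probe was not detected on that array. Nrip1 had 5.50 on the same array, against 4.86 in the next highest extreme male. Nr3c2 had 5.42 in male minimal replicate 8, against 5.00 in the next highest minimal male. Without male extreme replicate 6 the Smarca4 difference in exposed males was -0.39 (adjusted p = 0.0611) and not called. Leaving out any of 7 other arrays also lost that call, and over all 46 such fits the difference ran from -0.47 to -0.39.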

How the results depend on the processing

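Of 1238 values recomputed under other settings, 1197 kept their side of the threshold, 32 lost and 9 gained a call, and none of the called values changed sign. The deposited log2 table repeats the setting without background correction. Among uncalled values 56 changed sign. Scaling to the 75th percentile left 0 members called in minimal and in exposed males, 1 between the sexes, and 1, Stip1, in minimal and in exposed females. All 47 arrays likewise gave 0, 0 and 1 in these and 1, Stip1, in extreme and in exposed females, where the array put back is a control. No filter gave 0 in minimal males, 1 in exposed males and 1 between the sexes. Cell marker scores as covariates left 0 in minimal males, in exposed males and between the sexes. Array weights gave 3 in minimal males and 1 between the sexes. Each sex fitted by itself gave 0 in minimal males, and the fit of 42 arrays 0 between the sexes.

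With the replicate number as a block, 0 members were called in minimal males, 1 in exposed males and 1 between the sexes. These are running numbers within each group, not the rat numbers of the titles. By running number, 25 of 110 same-numbered pairs correlated above 0.1 (from -0.53 to 0.40), and in 0 of 15 pairs of groups did all of them. Pairing by the rat numbers that recur between male groups was not tested.

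Leaving out 1 array at a time gave 0 to 2 members in minimal males, 1 to 3 in exposed males, 1 to 2 between the sexes, 0 to 1 in exposed females and 0 to 1 for the exposure difference between the sexes. In exposed males Ncor1 kept its call in 43 of 46 such fits and lost it without male control replicate 3, 4 or 5, Smarca4 kept it in 38 and Stub1 in 31. Ncor1 in minimal males kept it in 21, Smarca4 between the sexes in 46 and Bag1 in 33. Without background correction the difference of Smarca4 in exposed males was -0.15 and that of Ncor1 -0.46, both called, and between the sexes Smarca4 was 0.11. Over all probes, called counts under the other settings ran from 119 to 1549 around 1055 in exposed males, 317 to 1983 around 1396 in minimal males, 0 to 149 around 0 in extreme males, 0 to 683 around 599 in exposed females, 6 to 561 around 505 in extreme females, 0 to 692 around 489 in minimal females, 0 to 1147 around 1072 for the exposure difference, and 0 to 3377 around 3212 between the sexes. Extreme against minimal gave 0 to 96 around 32 in females and 0 to 33 around 13 in males, and its difference between the sexes 0 to 12 around 3. Leaving out 1 array gave 793 to 1378 probes in exposed males, 1091 to 1554 in minimal males, 0 to 302 in extreme males, 410 to 803 in exposed females, 344 to 693 in extreme females and 352 to 670 in minimal females, and for extreme against minimal 7 to 72 in females and 0 to 92 in males.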

Other observations

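Other genes of the receptor pathway differed between the sexes. Of the 41 tested, 11 were higher and 7 lower in males, beside 18.9% of all probes higher and 15.3% lower. These counts were 13 and 2 with the 75th-percentile scaling, 7 and 1 with all 47 arrays, and 6 and 5 without the 4 female controls that stood apart. Cdc37, the gene of a cochaperone that brings kinases to HSP90, was higher (0.52, adjusted p = 7.54e-09), as was Trap1, a mitochondrial HSP90 gene (0.41, adjusted p = 0.000621), and Bag6 was lower (-0.46, adjusted p = 9.17e-06). The corepressor complex gene Gps2 was lower (-0.43, adjusted p = 1.23e-05) and the corepressor gene Ctbp2 higher (0.38, adjusted p = 0.0241). Among SWI/SNF genes 3 were higher and 1 lower, with Brd9 at 0.33, Smarcb1 at 0.21 and Arid1a at -0.30. Trim28, which was placed on the coactivator list, was higher (0.28, adjusted p = 0.00368). Hsd11b1, whose enzyme regenerates active glucocorticoid, was higher (0.52, adjusted p = 0.000118).

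Genes known to respond to the receptor were called in both sexes. Their list was written with earlier results of these data known, so the counts are descriptions and carry no test. Of 13 tested, 6 rose and none fell in exposed males, beside 6.23% of all probes higher and 4.97% lower, with Cxcr4 at 1.37 (adjusted p = 0.00122), Dusp1 at 1.18 (adjusted p = 0.00234) and Zfp36 at 1.09 (adjusted p = 0.00209). With all 47 arrays none of the 13 was called in exposed males by limma, where 5 had an unadjusted p below 0.05. Under scaling to the 75th percentile 4 were higher and 0 lower in exposed males, and in the fit of 42 arrays 6 were higher and 0 lower. In exposed females 4 fell and none rose, beside 4.27% of all probes higher and 2.09% lower, with Dusp1 at -1.78 (adjusted p = 1.33e-05) and Zfp36 at -1.33 (adjusted p = 0.000225). Extreme females against controls had 3 higher (Fkbp5, Klf9 and Per1) and 3 lower (Anxa1, Dusp1 and Zfp36), and extreme against minimal females 3 higher and 0 lower. Klf9 and Per1 were named after their values were seen. Without the 4 female controls that stood apart, none of the 13 was called in exposed females, 1 had an unadjusted p below 0.05, and the values were -0.23 for Dusp1 (adjusted p = 0.994) and 0.16 for Zfp36 (adjusted p = 0.994). The exposure difference between the sexes was called for 5 higher and 1 lower of the 13, and for none without those 4 arrays, where 6 had an unadjusted p below 0.05. Counts in exposed females were 1 higher and 2 lower under scaling to the 75th percentile, and 2 higher and 0 lower with all 47 arrays. These refits of pathway genes were chosen after seeing the data.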
